A study of Mus musculus with 6 samples.

Results

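Genes known to be switched on by the transcription factor p53 were followed in the epidermis of newborn mice labelled as Hnrnpu knockouts and of their controls. The 34 genes were taken by name from a list of p53 targets and sorted by what their products do: 8 in cell cycle arrest and feedback, 14 in cell death, 5 in DNA repair and 7 in metabolism and stress. This list and the further gene lists below were chosen with earlier results of these data known. Their counts beside the share of all genes are therefore descriptions and not tests. Of the 34, 32 had a row in the deposited table of 12894 genes, and all 32 passed the filter on low values. Fas, a death receptor, and Gdf15, a secreted stress cytokine, were not analysed here.

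The knockout-labelled animals were 3 C57BL/6 mice with the genotype label Hnrnpu knockout, at postnatal day 0; the labels name a loxP-Cre system as the means of knockout. Their 3 controls, of the same strain and age, comprised 1 with the genotype label Wild type (control 1) and 2 with the label Heterogenous (controls 2 and 3). The labels name neither the promoter that drives Cre nor the deleted part of the gene, and do not say whether controls carried Cre. Bulk RNA sequencing of the whole epidermal sheet gave 1 library per animal number, so fewer cells of a type and less RNA per cell cannot be told apart. Hnrnpu encodes an abundant nuclear RNA-binding and scaffold protein.

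The protein p53 is a stress-activated transcription factor that is normally kept low by the ubiquitin ligase Mdm2, itself a p53 target. Damage to DNA, faulty ribosome assembly and other stresses stabilise p53, which then binds pairs of a 10-base motif near its target genes and raises genes of arrest, death, repair and metabolism. In epidermis the related factor p63 maintains the keratinocyte lineage and binds similar motifs. Several p53 targets also answer to other stress regulators, such as Atf4 in the integrated stress response.

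Values are normalized counts per gene as deposited by the authors, and changes are log2 differences of (value + 1), knockout-labelled libraries minus control. Each has limma's moderated standard error (SE), which draws the variance from 3 and 3 libraries toward a trend over all genes tested. A gene was called when its limma p-value, Benjamini-Hochberg adjusted over 12872 genes, was under 0.05. The targeted gene did not separate the groups: Hnrnpu had 1565, 1342 and 1036 normalized counts in knockout libraries 1 to 3 and 1450, 1318 and 1160 in controls 1 to 3 (log2 difference -0.01 ± 0.20, limma adjusted p = 0.976; exact two-sided permutation p = 1, where 0.1 is the smallest possible). A gene count need not fall if the deleted part is small, so it does not settle the genotype, and every direction below rests on the labels. Estimated depth was 6460000 to 8770000 reads in the knockout-labelled libraries and 8280000 to 9120000 in controls. Xist, the RNA of the inactive X chromosome, was at 1.87, 5656 and 4758 normalized counts in knockout libraries 1 to 3 and at most 3.27 in a control, so the groups also differ in their mix of sexes. Values for knockout 1 alone against the 3 controls are therefore given below where they change a call.

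Of the 32 measured p53 targets, 20 were higher and 1 was lower in the knockout-labelled libraries, and 11 were not past the threshold. Over all genes tested, 17.7% were called higher and 15.9% lower. A log2 rise of at least 1 was called for 19 of the 32, where 12% of all genes reached it. The median change over the 32 was 1.42 on the log2 scale, against -0.02 over all genes tested. The 3 knockout-labelled libraries lay wholly above the 3 controls for 22 members and wholly below them for 3, where 25.8% and 25% of all genes did so. Ddit4l, one of the 20, passed the filter on low values only through the knockout-labelled libraries, so its place among the genes tested was not independent of its rise. Without it 19 of 31 were higher, with a median of 1.39. Ddit4l is also among the 19 with a log2 rise of at least 1 and the 22 lying wholly above the controls.

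**Figure D1:**
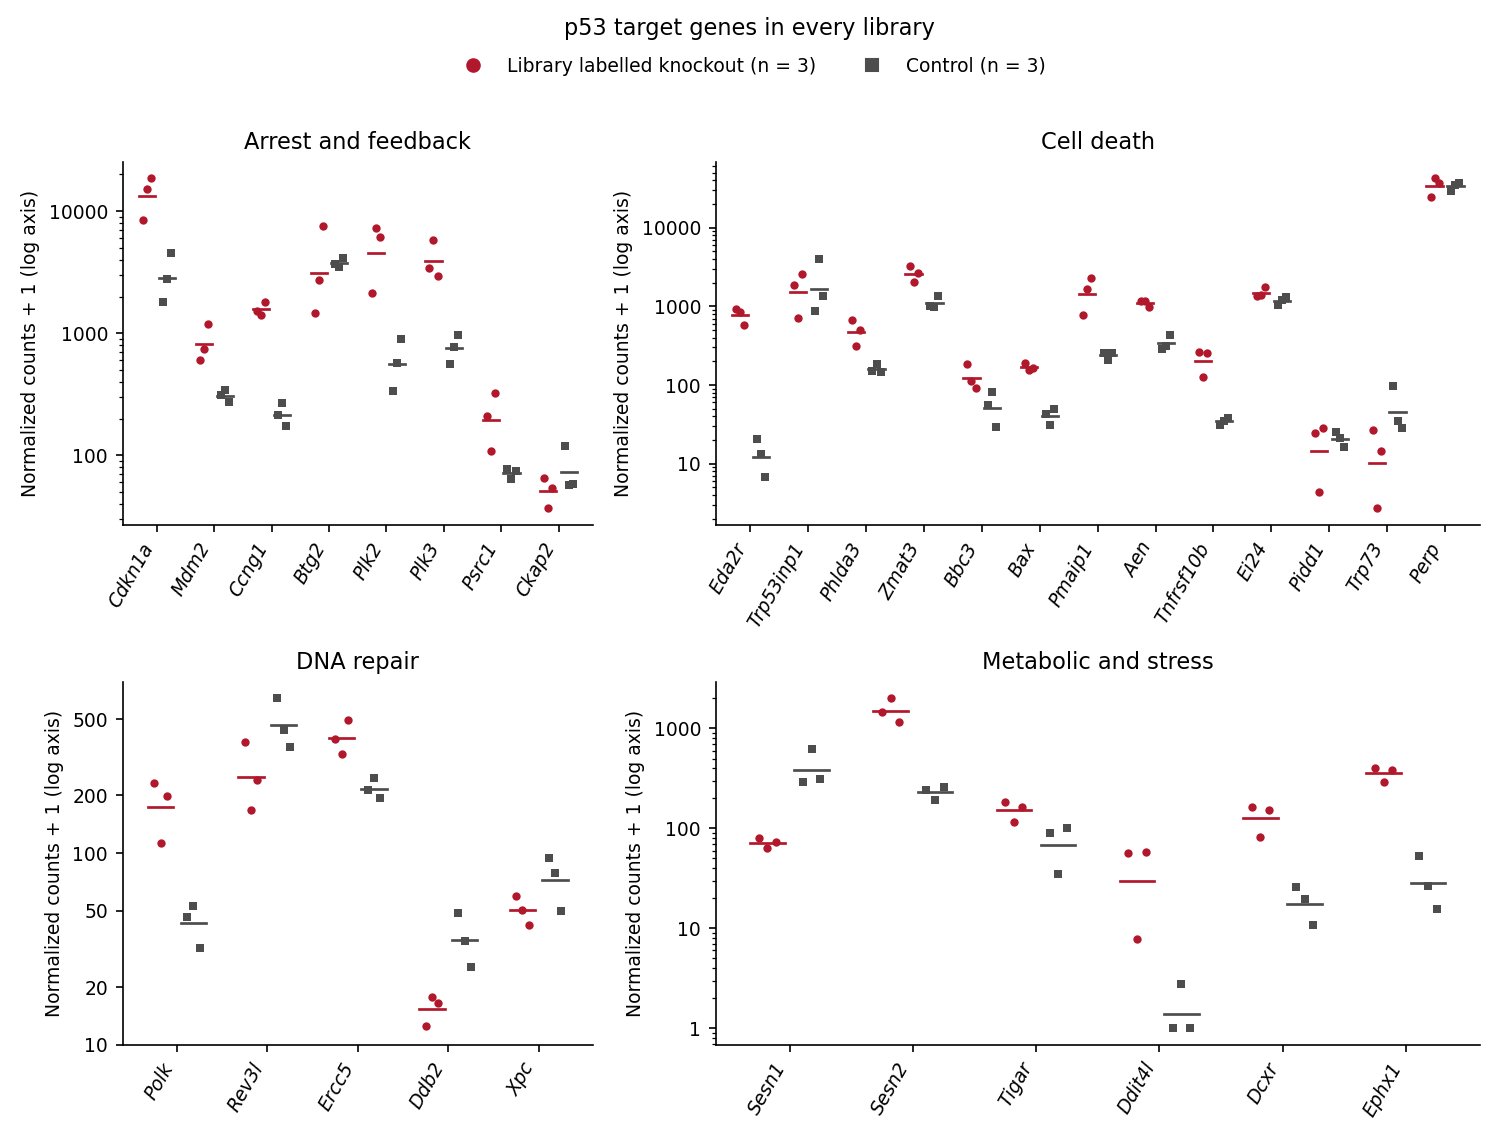
Normalized counts + 1 (log axis) of the 32 measured p53 target genes, in 4 panels by function; circles are the 3 knockout-labelled libraries, squares the 3 controls, and bars the mean on the log scale. Circles and squares are apart for Eda2r, Ccng1, Sesn2 and Ephx1, and overlap for Btg2, Trp53inp1 and Perp.

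The rises were shared by the knockout-labelled libraries but were not of equal size in each. Taking each library's median over the 32 genes relative to the control mean, knockout 1, 2 and 3 stood at 1.56, 1.04 and 1.60 on the log2 scale, and controls 1 to 3 at 0.05, 0.03 and -0.16. Among the 20 higher genes knockout 2 was the lowest of its group for 11. Within that group the highest library exceeded the lowest by 1.18 to 8.31 times, with a median ratio of 1.98. Knockout 2 also stood apart in markers of other cells: its summed level of the 2 measured neutrophil markers (of 8 listed; the mast cell markers of that list were not measured) was 507 normalized counts, against 26.2 and 28.8 in knockout 1 and 3 and 3.27 to 7.55 in controls, and its 2 measured endothelial markers summed to 119, against 7.48 and 15.5 in knockout 1 and 3 and 5.29 to 8.85 in controls. Without knockout 2 the count of higher members was 19, with 13.3% of all genes higher, and with knockout 1 alone it was 16 of 31, Ddit4l not passing the filter there, with 10.2% of all genes higher.

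Promoter windows are shown for 5 of the 10 members that hold the p53 decamer consensus, the 10-base unit that occurs in tandem in a p53 response element. The 5 were picked by name, and all were called. Aen, Ckap2, Ddit4l, Ei24 and Polk also hold it and are not shown. Of these, Ckap2 and Ei24 were not past the threshold. The windows are the 250 bases before an annotated transcription start, from RefSeq on GRCm38.p6, a different build from the mm39 named for the deposited table. Capitals mark decamer matches. Cdkn1a lies at chr17:29090729-29090978 (plus strand), Mdm2 at chr10:117710759-117711008 (minus), Ccng1 at chr11:40755287-40755536 (minus), Bax at chr7:45466899-45467148 (minus) and Sesn1 at chr10:41887189-41887438 (plus).
Cdkn1a: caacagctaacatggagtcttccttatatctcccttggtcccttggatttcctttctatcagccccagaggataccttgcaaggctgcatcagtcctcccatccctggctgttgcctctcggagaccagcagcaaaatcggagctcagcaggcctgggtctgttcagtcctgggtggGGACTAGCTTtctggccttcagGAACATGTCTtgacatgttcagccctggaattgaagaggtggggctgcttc
Mdm2: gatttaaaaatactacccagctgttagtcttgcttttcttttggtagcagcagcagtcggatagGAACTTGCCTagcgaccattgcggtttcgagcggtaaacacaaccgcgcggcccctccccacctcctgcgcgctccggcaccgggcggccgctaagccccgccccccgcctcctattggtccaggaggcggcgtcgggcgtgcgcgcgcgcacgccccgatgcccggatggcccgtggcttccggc
Ccng1: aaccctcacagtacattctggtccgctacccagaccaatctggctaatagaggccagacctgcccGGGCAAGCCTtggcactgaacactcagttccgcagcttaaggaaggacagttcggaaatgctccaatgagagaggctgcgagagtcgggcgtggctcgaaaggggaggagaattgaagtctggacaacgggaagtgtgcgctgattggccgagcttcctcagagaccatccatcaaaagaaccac
Bax: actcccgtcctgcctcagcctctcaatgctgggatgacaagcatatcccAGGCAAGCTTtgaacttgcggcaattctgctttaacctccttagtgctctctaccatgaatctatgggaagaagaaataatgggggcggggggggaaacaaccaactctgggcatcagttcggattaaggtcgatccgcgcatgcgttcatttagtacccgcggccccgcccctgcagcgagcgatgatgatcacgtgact
Sesn1: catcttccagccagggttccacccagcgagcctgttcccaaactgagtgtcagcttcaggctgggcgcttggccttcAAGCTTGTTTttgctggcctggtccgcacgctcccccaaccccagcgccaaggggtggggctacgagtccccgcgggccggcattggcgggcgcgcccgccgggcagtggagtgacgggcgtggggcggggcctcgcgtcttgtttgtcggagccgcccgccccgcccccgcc

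The Cdkn1a window, at the upstream of 2 annotated starts that lie 2790 bases apart, holds 2 decamers beginning at -73 and -51 from that start. Pairs with a spacer of 0 to 13 bases were present in 1 of the 26 members with a window and in 20 of 27025 genes (0.074%). The decamer reads the same on either strand, so a search of the printed strand covers both, and no other motif was searched. In full windows, which also take in 50 bases after the start, at least 1 decamer was present for 10 of 26 members (38.5%), against 9.55% of all genes. Counted by window, it was in 11 of 35 member windows (31.4%) and 8.36% of all 32851. Members higher in the knockout-labelled libraries held it in 7 of 17 cases and those not past the threshold in 2 of 6. Sesn1, the 1 lower member, held it too. A gene was counted if any of its windows held the decamer. Cdkn1a and Sesn1 held it in the printed window but not in those at chr17:29093519-29093818 and chr10:41810324-41810623. Polk held it at chr13:96519138-96519437 and not at chr13:96542530-96542829. A match of letters is not a measured binding site, and response elements outside these windows were not looked at.

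Arrest and feedback genes were mostly higher. Of 8 genes 6 were called higher (17.7% of all genes were) and 2 were not past the threshold, with a median log2 change of 1.84. Cdkn1a encodes p21, the inhibitor of cyclin-dependent kinases through which p53 halts the cell cycle. It had 8399, 15074 and 18574 normalized counts in knockout libraries 1 to 3, against 1794, 2798 and 4533 in controls 1 to 3. The groups did not overlap, and the change was 2.23 ± 0.39 (limma adjusted p = 0.00377), or 4.69-fold. With knockout 1 alone it was 1.57 and missed the threshold (limma adjusted p = 0.0537). A gene on the other strand, AC167363.2, overlaps Cdkn1a exons and had 25 to 52.6 normalized counts in the knockout-labelled libraries and 7.5 to 35.9 in controls. The sources used here do not say whether counting used strand, and the part of this overlap in the Cdkn1a counts was not tested.

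Mdm2, the ligase that closes the feedback loop on p53, had 603, 742 and 1181 normalized counts in knockout libraries 1 to 3 and 313, 340 and 272 in controls 1 to 3. All 3 exceeded every control, with a rise of 1.39 ± 0.26 (limma adjusted p = 0.00504). Ccng1, cyclin G1, which acts with the phosphatase PP2A on Mdm2, was among the most even of the rises. Its normalized counts were 1517, 1421 and 1802 in the knockout-labelled libraries, against 213, 268 and 172 in controls. The change of 2.87 ± 0.21 (limma adjusted p = 0.000101) corresponds to 7.30-fold.

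The polo-like kinases Plk2 and Plk3, stress-induced members of their family, rose together. For Plk2 there were 2146, 7275 and 6126 normalized counts in the knockout-labelled libraries and 336, 565 and 897 in controls, a change of 3.04 ± 0.49 (limma adjusted p = 0.00282), or 1.95 with knockout 1 alone. Plk3 reached 3432, 5819 and 2951 in the knockout-labelled libraries against 559, 772 and 976 in controls, a change of 2.37 ± 0.30 (limma adjusted p = 0.00094). Knockout 1 was the lowest of its group for Plk2 and knockout 3 for Plk3. Psrc1, a microtubule-associated proline and serine rich protein, had 210, 107 and 322 normalized counts in the knockout-labelled libraries and 76.3, 62.9 and 73.6 in controls. Its rise of 1.44 ± 0.37 (limma adjusted p = 0.0196) missed the threshold without control 2, without control 3 and without knockout 1 (limma adjusted p = 0.066, 0.0522 and 0.0538) and with equal library totals (0.092).

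Btg2 and Ckap2 did not follow the other arrest genes. Btg2, an antiproliferative gene, had 1478, 2729 and 7607 normalized counts in knockout libraries 1 to 3, against 3719, 3498 and 4147 in controls. The controls lay close together, whereas knockout 1 and 2 lay under them and knockout 3 above, so the difference of -0.27 ± 0.50 was not past the threshold (limma adjusted p = 0.696). Without knockout 3 Btg2 was called lower (-0.91, limma adjusted p = 0.0348), as it was with knockout 1 alone (-1.35, limma adjusted p = 0.00603), and without knockout 1 the sign turned (0.27, limma adjusted p = 0.623). Ckap2, a mitotic spindle protein, had 35.7 to 64.5 normalized counts in the knockout-labelled libraries and 55.8 to 119 in controls (-0.53 ± 0.37, limma adjusted p = 0.292).

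**Figure D2:**
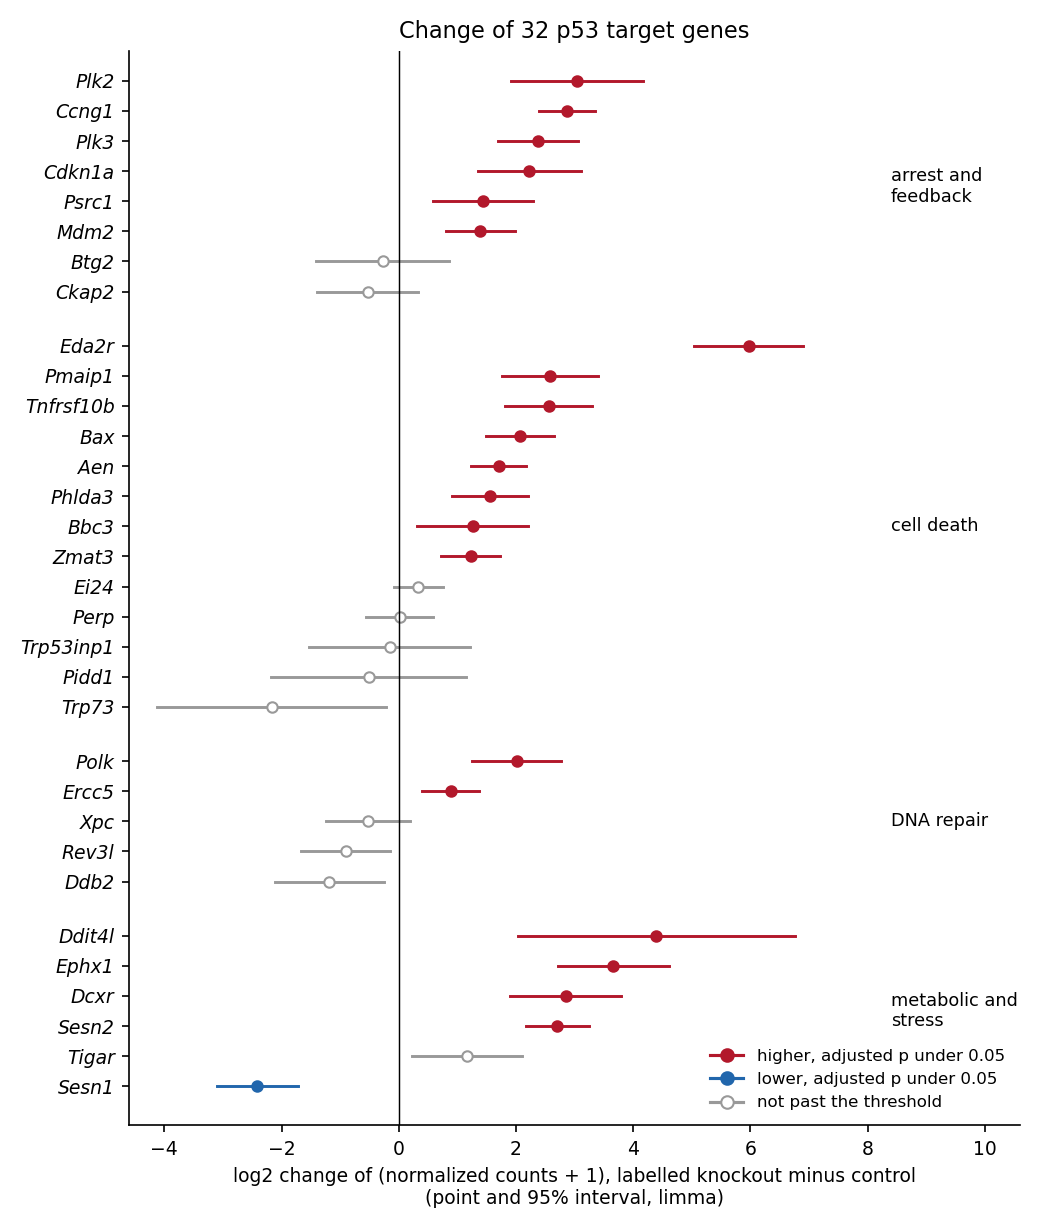
Log2 change of each of the 32 genes (knockout-labelled libraries minus control) with its 95% limma interval, grouped by function and sorted within each group. Filled points passed the threshold; 20 lie to the right of 0, Sesn1 lies to the left, and Eda2r is farthest right at 5.97.

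Among 13 measured cell death genes 8 were called higher (17.7% of all genes were) and 5 were not past the threshold. Their median log2 change was 1.26. The largest rise among the 32 fitted changes belonged to Eda2r, the X-linked receptor for ectodysplasin A2. It had 930, 857 and 573 normalized counts in knockout libraries 1 to 3 and 19.6, 12.4 and 5.72 in controls 1 to 3. The change was 5.97 ± 0.41 (limma adjusted p = 8.04e-05), or 62.7-fold, and the library with low Xist, knockout 1, held the highest level. Tnfrsf10b, the mouse TRAIL death receptor, had 264, 124 and 254 normalized counts in the knockout-labelled libraries against 30.2, 33.6 and 37.6 in controls. Its change was 2.56 ± 0.33 (limma adjusted p = 0.000999), and the groups were far apart.

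Of the genes of the mitochondrial death pathway, Bax, Pmaip1 and Bbc3 were higher. Bax, the pore-forming Bcl2 family member, had 189, 153 and 163 normalized counts in the knockout-labelled libraries, against 41.5, 30.1 and 48.2 in controls (2.07 ± 0.26, limma adjusted p = 0.00092). Pmaip1 encodes the BH3-only protein Noxa and had 775, 1674 and 2276 in the knockout-labelled libraries, against 254, 210 and 256 in controls (2.58 ± 0.36, limma adjusted p = 0.00146). Controls agreed closely for Pmaip1, while knockout 1 had the lowest level of its group, and the change with it alone was 1.69. Bbc3, which encodes Puma, had 182, 111 and 89.8 in the knockout-labelled libraries and 55.1, 79.7 and 28.6 in controls, a rise of 1.26 ± 0.41 close to the threshold (limma adjusted p = 0.0456). The Bbc3 call was lost without control 1, without control 3, and without knockout 1 or 2 (limma adjusted p = 0.0914, 0.131, 0.13 and 0.0816), with knockout 1 alone (0.058), with array weights (0.0678), without the variance trend (0.0691) and with equal library totals (0.143).

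Other death-pathway targets acting through signalling or RNA were also higher. Aen, an apoptosis-enhancing nuclease, had 1163, 1172 and 991 normalized counts in the knockout-labelled libraries, against 283, 314 and 433 in controls (1.71 ± 0.20, limma adjusted p = 0.000761). Phlda3, a repressor of the kinase Akt, had 669, 311 and 503 in the knockout-labelled libraries and 148, 186 and 146 in controls (1.56 ± 0.29, limma adjusted p = 0.00486). Zmat3, a zinc finger RNA-binding protein, had 3213, 2037 and 2651 in the knockout-labelled libraries and 1021, 970 and 1358 in controls (1.23 ± 0.22, limma adjusted p = 0.00458). For each of these genes the groups were apart, and knockout 2 was the lowest of its group for Phlda3 and Zmat3.

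The remaining death genes were not called. Perp, a desmosome protein of stratified epithelia and a known p63 target in skin, was the most abundant member per kilobase of merged exon (17727 normalized counts per kilobase in the knockout-labelled libraries and 17186 in controls; Cdkn1a had 3945 and 856). Its normalized counts were 24672, 42294 and 36846 in the knockout-labelled libraries and 29436, 34401 and 36806 in controls, which overlap (0.01 ± 0.25, limma adjusted p = 0.969, 95% interval -0.55 to 0.58). That near-zero difference depended on scaling: with quantile normalization Perp was called lower (-0.85, limma adjusted p = 0.00603). Trp53inp1, a regulator of autophagy and death, varied more within groups than between them, with 1871, 713 and 2550 in the knockout-labelled libraries and 873, 3954 and 1350 in controls (-0.15 ± 0.60, limma adjusted p = 0.861).

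Ei24, an endoplasmic reticulum protein, had 1346, 1380 and 1763 normalized counts in the knockout-labelled libraries against 1044, 1203 and 1299 in controls. The groups did not overlap, but the difference of 0.33 ± 0.18 was not past the threshold (limma adjusted p = 0.18) and was -0.01 with equal library totals. Pidd1, the scaffold of the PIDDosome, was low, with 23.4, 3.4 and 27.7 in the knockout-labelled libraries and 24.2, 20.4 and 15.5 in controls (-0.51 ± 0.73, limma adjusted p = 0.612). Trp73, the p53 paralog, had 26.2, 1.70 and 13.3 in the knockout-labelled libraries and 95.1, 33.6 and 27.8 in controls. All 3 were under every control, yet the difference of -2.17 ± 0.86 missed the threshold (limma adjusted p = 0.0811); it passed with neighbouring animal numbers as a block (0.0173; the labels number the animals in adjacent pairs across groups) and without knockout 1 (0.0409). The level in knockout 2 stands for about 1 read.

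DNA repair genes divided. Of 5 genes 2 were called higher (17.7% of all genes were) and 3 were not past the threshold, with a median log2 change of -0.52. Polk, a translesion DNA polymerase, had 231, 112 and 197 normalized counts in the knockout-labelled libraries and 45.3, 52.2 and 31.1 in controls (2.01 ± 0.33, limma adjusted p = 0.00317). Ercc5, an endonuclease of nucleotide excision repair, had 392, 327 and 495 in the knockout-labelled libraries and 211, 244 and 193 in controls (0.89 ± 0.21, limma adjusted p = 0.0147). Its call was lost without control 1 or 3 (limma adjusted p = 0.0513 and 0.0581), with knockout 1 alone (0.0507) and with equal library totals (0.147).

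The damage-recognition genes Ddb2 and Xpc, which are raised by p53 in human cells, were not past the threshold. Ddb2 had 11.6, 16.7 and 15.5 normalized counts in the knockout-labelled libraries and 47.9, 33.8 and 24.4 in controls. Every knockout-labelled library was below every control, but the difference of -1.18 ± 0.41 did not pass (limma adjusted p = 0.0542). It passed with equal library totals (-1.51, limma adjusted p = 0.0294), without the variance trend (0.0277) and with array weights (0.0478). Ddb2 exons overlap those of Acp2 on the other strand, which had 51.4 to 79.9 normalized counts in the knockout-labelled libraries and 51.2 to 69.6 in controls. Xpc had 41 to 58.9 in the knockout-labelled libraries and 49 to 93.6 in controls (-0.52 ± 0.32, limma adjusted p = 0.226). Rev3l, the catalytic subunit of polymerase zeta, had 379, 167 and 238 in the knockout-labelled libraries and 642, 439 and 356 in controls (-0.91 ± 0.33, limma adjusted p = 0.064). It was called lower with neighbouring animal numbers as a block (limma adjusted p = 0.00934), without knockout 1 (0.0246) and with equal library totals (0.0467).

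Of 6 measured metabolic and stress genes, 4 were called higher and 1 lower, with a median of 2.78 on the log2 scale. Over all genes 17.7% were higher and 15.9% lower. The 4 include Ddit4l, which passed the filter only through the knockout-labelled libraries. With the filter above 10, where Ddit4l was not tested, 3 were higher and 1 lower. The sestrins moved in opposite directions. Sestrins restrain the growth kinase complex mTORC1, Sesn1 chiefly as a p53 target and Sesn2 as a target of both p53 and Atf4. Sesn2 had 1465, 2006 and 1151 normalized counts in knockout libraries 1 to 3, against 242.4, 191.3 and 259.1 in controls 1 to 3. That is a rise of 2.71 ± 0.24 (limma adjusted p = 0.000208), or 6.53-fold. Sesn1 had 78.5, 62.9 and 72.1 in the knockout-labelled libraries against 291, 615 and 310 in controls, a log2 change of -2.41 ± 0.30 (limma adjusted p = 0.000963), to 0.188 of the control level. The 3 knockout-labelled libraries were close together for Sesn1, and control 2 stood above the other controls.

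The detoxifying enzymes Ephx1, microsomal epoxide hydrolase, and Dcxr, a dicarbonyl and L-xylulose reductase, were both higher. Ephx1 had 399, 291 and 386 normalized counts in the knockout-labelled libraries against 52.1, 25.7 and 14.7 in controls (3.66 ± 0.41, limma adjusted p = 0.000612). Dcxr had 162, 81.7 and 151 in the knockout-labelled libraries and 24.9, 18.6 and 9.81 in controls (2.85 ± 0.42, limma adjusted p = 0.0019). Ddit4l, an mTORC1 inhibitor also called Redd2, had 56.1, 6.81 and 56.6 in the knockout-labelled libraries and 0, 1.77 and 0 in controls. In estimated reads these are 115 over the knockout-labelled libraries and 2 over the controls, a ratio of 82.6 after scaling by what 1 read was worth in each library in normalized counts, with a 95% exact interval of 22.4 to 690 that covers counting error only. Ddit4l was above the filter's level of 1 in just 1 control, and it was not tested with the filter above 10 or with knockout 1 alone. Its call (limma adjusted p = 0.0136) was lost without knockout 1 or 3 (0.0642 and 0.0695), and without knockout 2 the fitted log2 change was 5.35 in place of 4.39. Tigar, a fructose bisphosphatase that slows glycolysis, had 182, 116 and 162 in the knockout-labelled libraries against 89.9, 33.6 and 98.9 in controls. The groups were apart but the difference of 1.16 ± 0.41 missed the threshold (limma adjusted p = 0.0593), and it passed with neighbouring animal numbers as a block (0.00939) and with array weights (0.0489).

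Transcripts of p53 itself were not called different. Trp53 had 421, 223 and 333 normalized counts in knockout libraries 1 to 3 and 303, 195 and 230 in controls 1 to 3 (0.40 ± 0.28, limma adjusted p = 0.287). Trp63, the epidermal family member, had 2213, 1958 and 1133 in the knockout-labelled libraries and 2616, 3762 and 1700 in controls (-0.59 ± 0.34, limma adjusted p = 0.203), and was called lower with neighbouring animal numbers as a block (0.0258). Mdm4, the partner of Mdm2, had 691, 385 and 550 in the knockout-labelled libraries and 701, 639 and 790 in controls (-0.42 ± 0.23, limma adjusted p = 0.188). Activity of p53 is set largely at the protein level, which was not measured.

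Of 25 measured genes of the p53 family and its regulators, 1 was higher and 7 were lower, with a median log2 change of -0.39. Over all genes 17.7% were higher and 15.9% lower. The higher gene was Ppp1r13l, which encodes the p53 inhibitor iASPP, with 3916, 5235 and 3352 normalized counts in the knockout-labelled libraries and 1815, 2077 and 2227 in controls (1.01 ± 0.20, limma adjusted p = 0.00728). Among the lower genes, Trp53bp1, a p53-binding protein of DNA break repair, had 228, 194 and 258 in the knockout-labelled libraries and 487, 516 and 578 in controls (-1.22 ± 0.19, limma adjusted p = 0.00227). Prkdc, the catalytic subunit of the DNA-dependent kinase, had 79.4, 54.4 and 82.1 in the knockout-labelled libraries and 189, 195 and 204 in controls (-1.45 ± 0.23, limma adjusted p = 0.00265). Cop1, a ubiquitin ligase acting on p53, had 236, 243 and 237 in the knockout-labelled libraries and 372, 426 and 473 in controls (-0.82 ± 0.18, limma adjusted p = 0.00942). Atr, Usp7, Hipk2 and Ppp1r13b were the other lower genes. The count of lower genes was 4 without control 2, 3 without control 3 and 4 with knockout 1 alone, where 8.61%, 8.68% and 11% of all genes were lower; the 3 of 25 without control 3 are near that share.

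**Figure D3:**
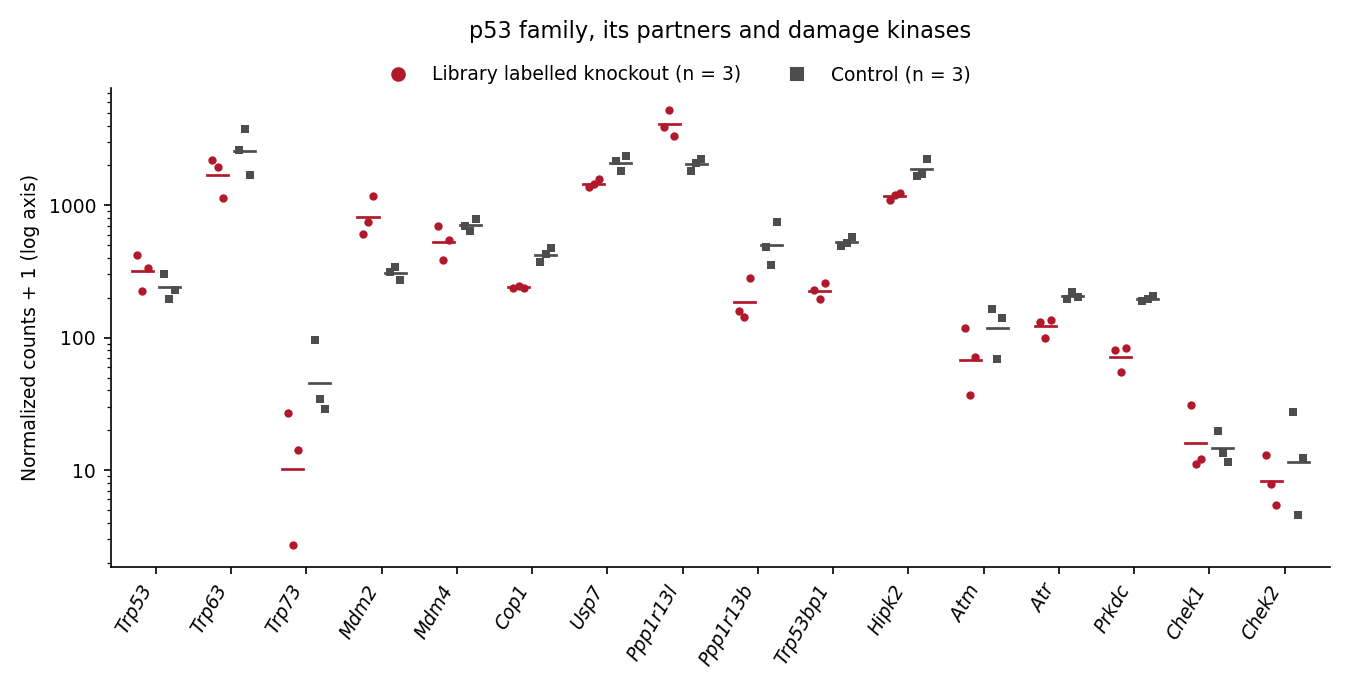
Normalized counts + 1 (log axis) of the p53 family, its regulators and the DNA damage kinases; circles are the 3 knockout-labelled libraries, squares the 3 controls, and bars the mean on the log scale. Groups overlap for Trp53, Trp63 and Mdm4, while Mdm2 and Ppp1r13l are higher and Prkdc and Trp53bp1 lower in the knockout-labelled libraries.

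A second list of further p53 targets, also chosen with earlier results known, gave 13 of 26 measured genes higher and 2 lower. Their median log2 change was 0.87, and over all genes 17.7% were higher and 15.9% lower. Gadd45a, a damage-inducible growth arrest gene, had 228, 277 and 186 normalized counts in the knockout-labelled libraries against 57.6, 55.6 and 43.5 in controls (2.11 ± 0.24, limma adjusted p = 0.000641). Cpt1c, a carnitine palmitoyltransferase family member, had 153, 74.9 and 268 in the knockout-labelled libraries and 12.1, 17.7 and 12.3 in controls (3.31 ± 0.46, limma adjusted p = 0.00146). Rap2b, a small GTPase, changed by 1.94 ± 0.31 (limma adjusted p = 0.00268; 1.25 with knockout 1 alone) and Sulf2, an extracellular sulfatase, by 1.37 ± 0.24 (0.00377). For all 4 genes the groups were apart. The higher genes numbered 7 with knockout 1 alone, where 10.2% of all genes were higher. The lower genes, Pank1 and Cyfip2, were both lost without control 1, without control 3 and with knockout 1 alone.

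The DREAM complex shuts cell cycle genes when cyclin-dependent kinases are inhibited. Genes listed as its targets were lower for 7 of 19 measured, where 15.9% of all genes were lower. The other 12 did not pass the threshold, and the median log2 change was -1.88. With control 1 left out, and with knockout 1 alone, the counts given below were near or under the share of all genes. The part of p21 or of the DREAM complex in these changes was not tested. Top2a, the topoisomerase of dividing cells, had 129, 40.8 and 103 normalized counts in the knockout-labelled libraries and 529, 368 and 248 in controls (-2.14 ± 0.44, limma adjusted p = 0.00789; -1.49 with knockout 1 alone). Ccna2, cyclin A2, had 26, 10.7 and 22.7 in the knockout-labelled libraries against 170, 75.4 and 59.4 in controls (-2.24 ± 0.48, limma adjusted p = 0.00949). Kif23, a cytokinesis kinesin, changed by -1.98 ± 0.52 (limma adjusted p = 0.0205) and Aurkb, a mitotic kinase, by -2.17 ± 0.64 (0.0307). Knockout 2 was the lowest of its group for each of these 4 genes. With knockout 1 alone the calls of Ccna2, Kif23 and Aurkb were lost (-1.78, -1.25 and -1.26; limma adjusted p = 0.0748, 0.154 and 0.222). That of Kif23 was also lost without control 1 (0.0875), and that of Aurkb without control 1, control 2 or knockout 2 (0.127, 0.0823 and 0.0684). The count of lower genes was 2 without control 1, 3 without control 2, 3 without knockout 2, 4 with array weights and 1 with knockout 1 alone, where 8.98%, 8.61%, 12.1%, 15.7% and 11% of all genes were lower.

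Of 19 measured cyclins, kinases and inhibitors, 2 were higher and 6 lower, with a median log2 change of -0.43. Over all genes 17.7% were higher and 15.9% lower, so the 2 of 19 higher are below that share. Ccna2, Ccnb1, Ccnb2 and Cdk1 are also on the DREAM list. Cdkn2c, the inhibitor p18, had 14, 17 and 24.4 normalized counts in the knockout-labelled libraries and 120, 61.1 and 80.8 in controls (-2.16 ± 0.37, limma adjusted p = 0.00345). Rbl2, the DREAM component p130, had 164, 116 and 174 in the knockout-labelled libraries and 277, 401 and 386 in controls (-1.23 ± 0.24, limma adjusted p = 0.0063). Cdk2, a kinase inhibited by p21, had 353, 316 and 262 in the knockout-labelled libraries and 210, 150 and 154 in controls (0.86 ± 0.22, limma adjusted p = 0.018), a call lost without control 2, control 3 or knockout 1 (0.072, 0.0667 and 0.0515). Thus among the inhibitors Cdkn1a was higher and Cdkn2c lower, while Cdkn1b, Cdkn1c, Cdkn2b and Cdkn2d were not past the threshold. The higher genes were Cdk2 and Ccnd1; neither was called without control 2, control 3 or knockout 1 or with equal library totals, and 1 was without knockout 2 and without the variance trend. The lower count was 3 without control 1, control 2 or knockout 2 and 2 with knockout 1 alone, the last near the 11% of all genes lower there.

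**Figure D4:**
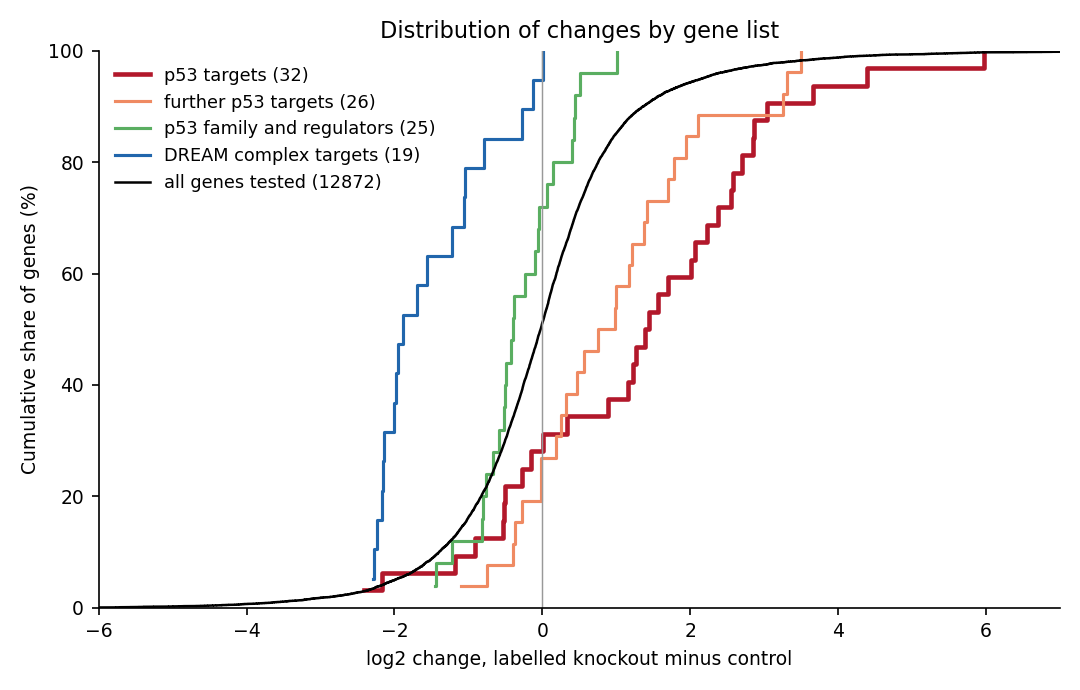
Cumulative share of genes (%) against log2 change (knockout-labelled libraries minus control) for the 32 p53 targets, 26 further targets, 25 regulators, 19 DREAM complex targets and all 12872 genes tested. The curve of the p53 targets crosses the middle of the axis at a median of 1.42, that of all genes at -0.02 and that of the DREAM targets at -1.88.

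Genes of the integrated stress response, which shares targets such as Sesn2 with p53, were higher for 14 of 15, Atf3 being the exception. Their median log2 change was 1.99, and 17.7% of all genes were higher. Asns, asparagine synthetase, had 2742, 4032 and 3076 normalized counts in the knockout-labelled libraries against 169, 196 and 172 in controls (4.17 ± 0.19, limma adjusted p = 1.82e-05). Atf5 changed by 3.87 ± 0.23 (limma adjusted p = 4.66e-05), the lipoprotein receptor Vldlr by 3.65 ± 0.30 (0.000144) and the cystine transporter Slc7a11 by 3.88 ± 0.35 (0.000222). The part of this response in the p53 target result was not tested.

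Keratinocyte markers set the tissue label against the data, and all 8 were measured. Their summed level was 619217 to 856936 normalized counts in the knockout-labelled libraries and 805309 to 872525 in controls. Of the 8, 1, Krt14, was called higher. Krt10, Flg and Dsg1a lay wholly below the controls, as 25% of all genes did. They were not past the threshold (limma adjusted p = 0.219, 0.196 and 0.054). All 8 melanocyte markers were higher, with sums of 3104 to 4978 in the knockout-labelled libraries and 478 to 711 in controls. Of the 8 dermal fibroblast markers 4 were measured, with sums of 440 to 516 in the knockout-labelled libraries and 137 to 391 in controls. Col1a1, Col1a2 and Col3a1 were higher. Dcn went the other way and was not past the threshold (-0.75 ± 0.58, limma adjusted p = 0.341). It had 215, 61.2 and 80.9 normalized counts in knockout libraries 1 to 3 and 366, 160 and 87.5 in controls 1 to 3. Lum, Pdgfra, Pdgfrb and Twist2 were not measured. The 7 measured of 8 Langerhans cell and macrophage markers summed to 420, 1407 and 651 in knockout libraries 1 to 3. In controls 1 to 3 the sums were 1276, 1078 and 941. Knockout 1 and 3 were thus under every control and knockout 2 above them, where Itgam alone had 573 (52.3 and 82.1 in knockout 1 and 3). Of these markers 1 was higher and 2 were lower, and Cd207 was not measured. The 4 measured of 8 T cell markers summed to 86, 214 and 76.5 in knockout libraries 1 to 3. In controls 1 to 3 they summed to 205, 232 and 129, and Cd3e was lower. The part of these cells in the p53 target result was not tested.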

How the data were processed

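Bulk RNA sequencing of newborn mouse epidermis gave 6 libraries, 3 labelled knockout and 3 control by their titles. The authors deposited normalized counts per gene (a non-negative signal). The tools named in the submitters' processing notes are TopHat2 2.1.0 and Partek 9.0.20.0202, and the build is mm39; their roles are not described. Normalization method, annotation, strand setting and filter were not given in these sources. The smallest value shared by many genes in a library was taken as 1 read. Between 80.4 and 83.0% of low values (at most 20 reads) fell on multiples of it, within 0.02 of a read. The others were fractional, which leaves no whole counts to model. In knockout 2, the shallowest library, 1 read was worth 1.70 normalized counts. Separate title numbers are read as separate animals; if they are not, p-values measure a spread that may be technical.

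Symbols were matched by Ensembl ID (12771 of 12894). Values were tested as log2(value + 1), which understates changes of low genes, in genes above 1 in at least 3 libraries (12872), by limma 3.58.1 in R 4.3.3 (lmFit, eBayes with trend), Benjamini-Hochberg adjusted at 0.05. The fit was tested on simulated data. Exon overlaps and lengths came from GENCODE M21, promoters from RefSeq, both GRCm38. Intervals are at 95%.

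The members and gene lists were chosen with earlier results of these data known. All 34 members are reported; of the other lists, the text names up to 4 genes by smallest adjusted p among those called, besides Trp53, Trp63 and Mdm4. Other genes named from these lists (the rest of the called genes of short counts, the CDK inhibitors, and genes with overlapping exons) were chosen after their values were seen. Animal numbers are adjacent across groups, and deviations from group means correlated by 0.37, 0.23 and 0.36 within adjacent pairs. The numbers were taken to pair the libraries in 1 alternative only, from the data and not from a stated litter. The analysis reported used no pairing and called 4328 genes, against 5781 with the block of adjacent numbers. Alternatives were pseudocounts of 0.5 and 5, no filter or a filter above 10, equal totals, quantile normalization, no trend, a robust fit, array weights, the block of adjacent numbers, each library left out, and knockout 1 alone.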

Additional observations from a re-analysis of the deposited data

How the results depend on the processing

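Under the 17 alternatives 16 to 21 p53 targets were called higher (20 in the analysis reported), and 15 of the 20 kept their call under all 17. The exceptions were Bbc3, Cdkn1a, Ddit4l, Ercc5 and Psrc1, whose lost calls are given above; Ddit4l could be tested under 15 of the 17. The count lower was 2 with array weights, without the variance trend, with quantile normalization and with knockout 1 alone, and 3 with equal library totals and with the replicate block of adjacent animal numbers, where 21 were higher; it was 1 to 3 with a library left out. The block changed no member's call other than those of Rev3l, Tigar and Trp73. With equal library totals the median change of all genes moved to -0.36 and that of the members to 1.08, and 1440 genes were higher and 3065 lower, against 2279 and 2049. Over the 17 alternatives 10.2 to 22.9% of all genes were higher and 8.61 to 23.8% lower. All genes called numbered 4328, 2711 with knockout 1 alone and 2631 to 4464 with a library left out, fewest without a control. Hnrnpu changed sign with array weights (0.018), with knockout 1 alone (0.26) and with a library left out (-0.15 to 0.15). Members near 0 changed sign: Perp with array weights (-0.094), knockout 1 alone (-0.44), equal totals (-0.33), quantile normalization (-0.85) and a library left out (-0.15 to 0.24), Ei24 with equal totals (-0.0074), Pidd1 and Trp53inp1 with knockout 1 alone (0.23 and 0.16) and with a library left out (-1.0 to 0.35 and -0.62 to 0.47), and Btg2 with a library left out (-0.91 to 0.27). The cause of these shifts was not tested. With knockout 1 alone the spread comes from the controls. Depth limits Pidd1, Trp73, Ddb2 and Ddit4l, which had few reads in some libraries.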
